A study of Mus musculus with 12 samples.

Results

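The miR-15/16 and miR-195/miR-497 family was examined by small RNA sequencing of exosomes, vesicles shed by cells that can carry miRNAs between them. The source was primary mouse hepatocytes, the metabolic cells of the liver, at passage 0 and grown with fetal bovine serum and glutamax in Williams' E medium. The hepatocytes were labelled as coming from lean mice (the control group), from mice on 4 weeks of high-fat diet (HFD) or from mice on 16 weeks of HFD, with 4 libraries in each of the 3 groups. Library names mark the lean group as NCD, without spelling these letters out. Strain, sex, age, fat content of the diet and the number of mice per library are not given in the sources used here. The p-values therefore measure the spread between these libraries, which may be technical. The family members were chosen by name: 10 mature arms of 1965 listed miRNAs, namely both arms of miR-15a, miR-15b and miR-195a, miR-16-5p with the 3p arms of its 2 hairpins, and miR-497a-5p.

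A miRNA hairpin is cut into a 5p and a 3p strand, and the strand loaded into an Argonaute protein pairs with target mRNAs mainly through its seed, bases 2 to 8 from the 5′ end. In this family the 5p strands are the usual guides. They share 1 seed and are best known as brakes on the cell cycle and on survival, through targets such as cyclin D1 and BCL2. The human miR-15a/16-1 locus is often deleted in chronic lymphocytic leukaemia. In mouse heart, miR-195 represses the checkpoint kinase gene Chek1. The 3p strands come from the other side of the same hairpins and are usually the less abundant product, so they report that a hairpin was transcribed and cut.

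The 6 hairpins lie in 3 pairs (GENCODE M21 on GRCm38, the assembly behind mm10, the build named in the submitters' processing notes). Mir15a (chromosome 14, 61632027 to 61632110, minus strand) and Mir16-1 (61631880 to 61631972) are 54 bases apart within the long noncoding gene Dleu2, the first in an intron and the second overlapping an annotated exon. Mir15b (chromosome 3, 69009772 to 69009835, plus strand) and Mir16-2 (69009902 to 69009996) are 66 bases apart in an intron of Smc4, which encodes a condensin subunit. Mir497 (chromosome 11, 70234717 to 70234800, plus strand) and Mir195a (70235042 to 70235135) are 241 bases apart and lie in no annotated host gene. The mature miR-16-5p is the same from both of its loci.

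All 10 members matched by name in the RefSeq sequence table (GRCm38.p6). The 5p arms are shown first because they carry the seed for which the family is known, in capitals.
miR-15a-5p: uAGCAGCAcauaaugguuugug
miR-15b-5p: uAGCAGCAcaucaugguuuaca
miR-16-5p: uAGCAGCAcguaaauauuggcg
miR-195a-5p: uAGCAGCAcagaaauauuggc
miR-497a-5p: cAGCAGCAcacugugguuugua
The closest pair is miR-16-5p and miR-195a-5p, which are identical at 19 of 21 positions and differ by G10A and U11G (the miR-16-5p base first, positions counted from 1 at the 5′ end). Within the members, miR-195a-5p was nonetheless the only 5p arm with any read. It shares its first 16 bases with miR-195b, a listed miRNA of another locus that had 0 reads.

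The 3p arms are shown with their own seeds in capitals. Each seed differs, and 0 other listed miRNAs share any of them.
miR-15a-3p: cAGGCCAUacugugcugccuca
miR-15b-3p: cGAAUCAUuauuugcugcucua
miR-16-1-3p: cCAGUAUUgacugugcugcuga
miR-16-2-3p: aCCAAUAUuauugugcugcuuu
miR-195a-3p: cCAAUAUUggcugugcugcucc
What the 3p arms share lies at their other end: all 5 hold the 6 letters UGCUGC, the complement of part of the family seed, from base 13 or 14 onwards. Among all listed miRNAs with a RefSeq sequence, 14 of 1674 (0.836%) hold these letters on the mature strand. The pairing partner is visible in the hairpins of Mir16-1 and Mir195a, chosen because opposite arms of them were read (arm with reads in capitals).
Mir16-1: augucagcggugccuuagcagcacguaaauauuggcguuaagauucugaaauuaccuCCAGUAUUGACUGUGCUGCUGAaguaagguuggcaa
Mir195a: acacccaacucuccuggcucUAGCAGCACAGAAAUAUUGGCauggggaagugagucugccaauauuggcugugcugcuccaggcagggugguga

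The values are CPM, reads of a miRNA per 1000000 reads of all listed miRNAs. Because they come in whole steps, the reads behind them could be recovered. Depth was lowest after 4 weeks of HFD, with 2352 to 4477 reads per library, against 13748 to 30430 in lean and 20538 to 37596 after 16 weeks. In the 4-week group 1 read was worth 223 to 425 CPM, compared with 32.9 to 72.7 CPM for lean and 26.6 to 48.7 CPM for 16 weeks. A group without any read still allows a level of up to 3 pooled reads (the 1-sided 95% limit of a count of 0), which is 213 CPM for 4 weeks, 36.2 CPM for lean and 27.1 CPM for 16 weeks. Intervals and floors given here cover counting error only, since reads without molecular identifiers are not independent molecules. The most abundant miRNA, miR-101b-3p, was lower at 4 weeks than in lean (limma adjusted p = 0.00141), with means of 252344 and 619422 CPM, and stood at 603986 CPM at 16 weeks. Since CPM are shares, its lower share goes with higher CPM of the rest. Of the markers of the labelled cell type, miR-122-5p had 3 reads in all 12 libraries, miR-194-5p 1 and miR-192-5p 149, and the summed level of the 4 hepatocyte markers ranged over 145 to 409 CPM (lean), 425 to 900 CPM (4 weeks) and 536 to 1777 CPM (16 weeks). All 4 leukocyte and all 5 stellate cell and fibroblast markers were at 0, 1 of 2 endothelial markers had 1 read at 16 weeks, and of the 3 red blood cell markers miR-451a had 3 reads, all in lean. Outside these short lists, miR-511-3p, from the macrophage gene Mrc1, had a mean of 13246 CPM. The zeros therefore cannot show that material of other cell types was absent.

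Of the 10 members, 4 had reads, 150 in all, and 6 had none. With 207621 listed reads in the 12 libraries, 0 reads allow up to 14.4 CPM for each of the 6. This limit holds only if none of their reads were left out of the table as not unique, which is not stated. The silent members included the guides mmu-miR-15a-5p, mmu-miR-15b-5p, mmu-miR-16-5p and mmu-miR-497a-5p, together with mmu-miR-15b-3p and mmu-miR-195a-3p. The members with reads were the 3p arms mmu-miR-15a-3p (39 reads), mmu-miR-16-1-3p (41) and mmu-miR-16-2-3p (20) and the 5p arm mmu-miR-195a-5p (50), which ranked between 88 and 127 of 611 miRNAs with reads. No member is among the 7 miRNAs whose values are not whole reads of their own library.

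Each hairpin was therefore seen through 1 arm at most. The 3p arm gave 39 of 39 reads of the Mir15a pair (100%, Clopper-Pearson 95% interval 91.0 to 100%), 41 of 41 of the Mir16-1 pair (91.4 to 100%) and 20 of 20 of the Mir16-2 pair (83.2 to 100%). At Mir195a it gave 0 of 50 (0 to 7.11%). Reads from 1 arm alone were common in the table: of 87 other hairpins with both arms listed and at least 20 reads, 28 had reads from the 3p arm alone, 8 from the 5p arm alone and 51 from both. The silent miR-16-5p is also encoded at more than 1 locus. Of 53 listed miRNAs with several RefSeq loci 11 had a read (20.8%), against 544 of 1621 with a single locus (33.6%). How reads with several matches were treated is not stated, the table is named as one of unique mouse miRNAs, and the part of either in the zeros was not tested.

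**Figure D1:**
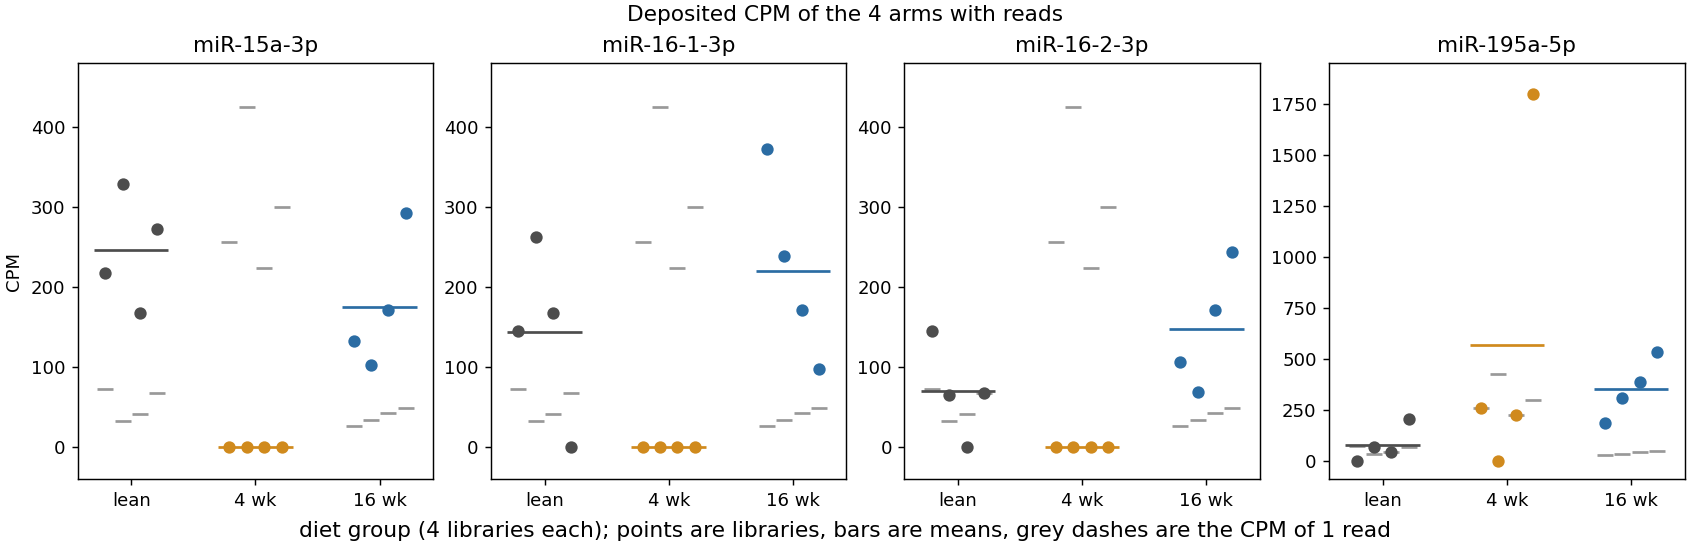
Deposited CPM (vertical axes) of the 4 members with reads in each library of the lean, 4-week and 16-week groups, with group means as bars and the CPM of 1 read in that library as a grey dash. The 3p arms were at 0 in all 4 libraries at 4 weeks, where 1 read would lie at 223 to 425 CPM, and 1 library at 4 weeks carried 1799 CPM of miR-195a-5p.

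The passenger strand of the Dleu2 locus, miR-15a-3p, was read in every lean library, at 218, 329, 167 and 273 CPM (3, 10, 4 and 4 reads). At 4 weeks it was at 0 in all 4 libraries. At 16 weeks it was back in every library, at 133, 103, 171 and 292 CPM (5, 3, 4 and 6 reads). The lean and 16-week libraries overlapped, and all 4 libraries at 4 weeks lay below both. How many other miRNAs separate in this way was not counted.

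Its clustered neighbour miR-16-1-3p stood at 145, 263, 167 and 0 CPM in lean (2, 8, 4 and 0 reads), at 0 in all libraries at 4 weeks, and at 372, 239, 171 and 97.4 CPM at 16 weeks (14, 7, 4 and 2 reads). The lean library without a read makes lean and 4 weeks overlap. Set beside miR-15a-3p from the hairpin next to it, miR-16-1-3p gave 14 of their 35 reads in lean (40%, Clopper-Pearson 95% interval 23.9 to 57.9%) and 27 of 45 at 16 weeks (60%, 44.3 to 74.3%). The 2 intervals overlap, and the share ran from 0 to 50% over the lean libraries and from 25 to 73.7% over the 16-week libraries.

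From the Smc4 intron, miR-16-2-3p stood at 145, 65.7, 0 and 68.2 CPM in lean (2, 2, 0 and 1 reads), at 0 in all libraries at 4 weeks, and at 106, 68.3, 171 and 243 CPM at 16 weeks (4, 2, 4 and 5 reads). Lean and 16-week libraries overlapped. Its host-intron neighbour miR-15b was silent on both arms.

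The 5p guide miR-195a-5p behaved otherwise. It stood at 0, 65.7, 41.8 and 204 CPM in lean (0, 2, 1 and 3 reads), at 256, 0, 223 and 1799 CPM at 4 weeks (1, 0, 1 and 6 reads), and at 186, 308, 385 and 536 CPM at 16 weeks (7, 9, 9 and 11 reads). The lean and 16-week libraries overlapped only through 1 lean library (204 CPM) above the lowest 16-week library (186 CPM). The mean of 570 ± 827 CPM at 4 weeks (SD, n = 4) rests on 1 library.

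The zeros at 4 weeks have to be read against the depth of those libraries, which together held 14063 reads. At the lean level, miR-15a-3p would have given 3.57 reads there, miR-16-1-3p 2.38 and miR-16-2-3p 0.849. A count of 0 has a 2-sided exact Poisson 95% upper limit of 3.69 reads, or 262 CPM. By that limit no single one of these zeros lies outside counting error of the lean level. By the 1-sided limit of 3 reads, or 213 CPM, the zero of miR-15a-3p lies outside it. The pooled lean levels were 254 CPM for miR-15a-3p (95% interval 157 to 388), 169 CPM for miR-16-1-3p and 60.4 CPM for miR-16-2-3p, all under 262 CPM. The 16-week levels, of 162, 244 and 135 CPM in the same order, were under 262 CPM too, and that of miR-16-1-3p was above 213 CPM. How the zeros of miR-15a-3p and miR-16-1-3p are read therefore depends on the limit chosen. No fold against 4 weeks is given for a single arm. With a floor of 3 reads in each single library (670 to 1276 CPM at 4 weeks) no fold could be read.

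Summed, the 3 detected 3p arms had 40 (lean), 0 (4 weeks) and 60 (16 weeks) reads. The lean level would have given 6.80 reads at 4 weeks and the 16-week level 7.62, both above the upper limit of 3.69 reads for a count of 0. By library the sum was 509, 657, 334 and 341 CPM in lean, 0 in each library at 4 weeks, and 612, 410, 513 and 633 CPM at 16 weeks. The pooled levels were 483 CPM (345 to 658) in lean and 542 CPM (413 to 697) at 16 weeks. Both intervals lie above the upper limit of 262 CPM at 4 weeks. The sum was formed with these zeros known and is a description. It leaves out miR-195a-5p, the only member with reads at 4 weeks. With that arm included, all 10 members together had 46, 8 and 96 reads in the same group order. The 8 reads (exact Poisson 95% interval 3.45 to 15.8), 6 of them from 1 library, compare with 7.81 expected from the lean level and 12.2 from the 16-week level. The family total therefore showed no drop at 4 weeks beyond counting error.

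Zeros at 4 weeks were common over all miRNAs tested and rarer among those with at least as many lean reads as miR-15a-3p. Of 267 miRNAs tested, 66 (24.7%) had 0 reads in all libraries at 4 weeks. Of the 85 tested with at least the 21 lean reads of miR-15a-3p, 2 (2.35%) did, miR-15a-3p itself and miR-376b-5p. The bound of that set is the count of miR-15a-3p itself, and the set reaches up to miR-101b-3p with 52112 lean reads. A miRNA with many more lean reads could hardly be at 0 even at the 4-week depth. The low share was therefore largely set in advance, and this is a description.

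**Figure D2:**
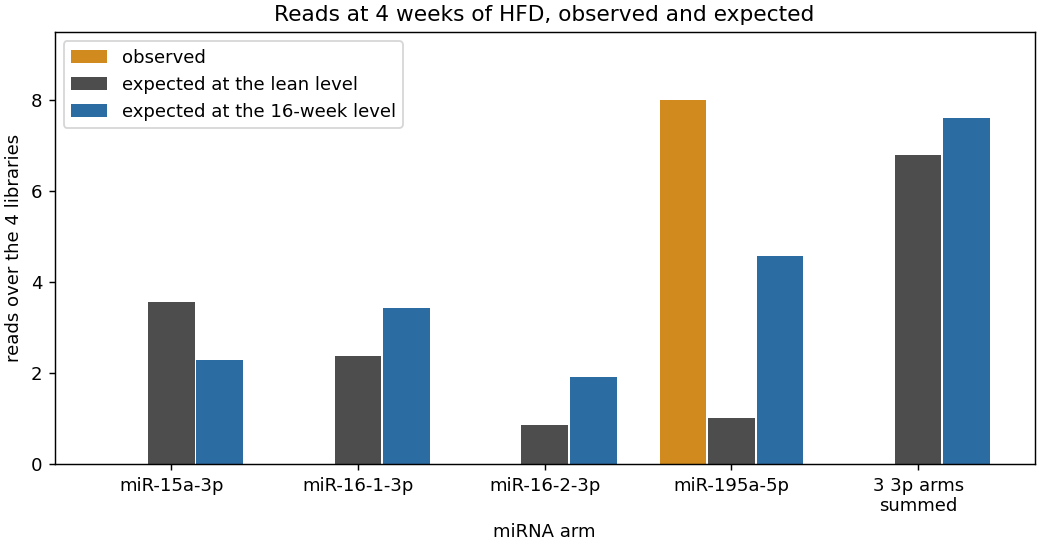
Reads over the 4 libraries at 4 weeks of HFD (vertical axis) for each member with reads and for the sum of the 3 detected 3p arms, as observed and as the pooled lean or 16-week level would give at that depth. The 3p arms show 0 observed reads against 0.849 to 3.57 at the lean level. For miR-195a-5p there are 8 reads, 6 of them in 1 library, against 1.02 at the lean level (from 6 lean reads) and 4.57 at the 16-week level.

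Set against lean first were the libraries of 4 weeks of HFD. Testing took miRNAs that reached 10 CPM in 4 or more of the 12 libraries, which kept 4 of the 10 members, and 1 was called. The arm miR-15a-3p was lower at 4 weeks, by a log2 difference of -0.86 (SE 0.27, limma on log2(CPM + 300), adjusted p = 0.0263). All 4 libraries at 4 weeks lay below all lean ones, a separation not counted over the other miRNAs. With 0 reads at 4 weeks, miR-15a-3p met the filter through its lean and 16-week libraries alone. Its 4 values at 4 weeks have no spread. As 1 read there would stand at 223 to 425 CPM, these zeros bound the level and do not measure it. On the log2(CPM + 300) scale the size of the difference is set mainly by the pseudocount of 300 CPM, about 1 read at 4 weeks, and understates low miRNAs. Among all 267 miRNAs tested, 36 were called higher and 27 lower (23.6% called), so 1 called member of 4 tested is close to the background. The split depends on the scaling, with 18 higher and 46 lower when CPM were recomputed without miR-101b-3p.

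The call for miR-15a-3p rested on 21 lean reads and lay near the threshold in some settings, while its direction was kept in each. Leaving out 1 library gave limma differences of -0.93 to -0.79, and the call was lost without lean replicate 2 (-0.79, limma adjusted p = 0.05, just above the threshold). It was also lost in DESeq2 on the recovered reads (-2.91, adjusted p = 0.0623; 20% of 260 miRNAs called) and in edgeR without TMM scaling (-5.15, adjusted p = 0.131). In edgeR with TMM it was kept (-5.12, adjusted p = 0.0327; 16.9% of 260 miRNAs called). The other 3p arms did not pass. For miR-16-1-3p the difference was -0.53 (SE 0.27, limma adjusted p = 0.171) and for miR-16-2-3p -0.29 (SE 0.19, limma adjusted p = 0.281). For miR-195a-5p it was 0.82 (SE 0.48, limma adjusted p = 0.238), and 0.26 without 4-week replicate 4, which carries 6 of its 8 reads at 4 weeks. With edgeR without TMM scaling miR-195a-5p was called higher (2.83, adjusted p = 0.0254; 20% of 260 called), and with TMM it was not (1.80, adjusted p = 0.171).

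The second comparison set 16 weeks of HFD against lean, the 2 groups of like depth. None of the 4 tested members was called by limma on log2(CPM + 300), against 15 of 267 miRNAs over the table (5.62%, 53 with an unadjusted p under 0.05, none of them a member). The 3p arms differed from lean by -0.21 for miR-15a-3p (SE 0.27, limma adjusted p = 0.757), 0.24 for miR-16-1-3p (SE 0.27, adjusted p = 0.718) and 0.27 for miR-16-2-3p (SE 0.19, adjusted p = 0.465). On the linear scale, which the pseudocount does not compress, the ratios of the pooled levels at 16 weeks to lean were 0.641, 1.44 and 2.24 in the same order. The last is that of miR-16-2-3p, at 60.4 CPM in lean (5 reads, exact Poisson 95% interval 19.6 to 141) and 135 CPM at 16 weeks (15 reads, 75.8 to 223), and these intervals overlap, as do those of the other 3p arms.

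Among the 4 tested members, the largest ratio to lean at 16 weeks was that of miR-195a-5p. Its pooled level was 72.5 CPM in lean (6 reads, exact Poisson 95% interval 26.6 to 158) and 325 CPM at 16 weeks (36 reads, 228 to 450), a ratio of 4.48, and the counting intervals do not overlap. Replicates of a group differed by more than sampling noise, so these intervals are too narrow for a comparison of groups. How many other miRNAs have intervals apart in this way was not counted. Over libraries the means were 78.0 ± 88.6 and 354 ± 146 CPM (SD, n = 4 each). The limma difference of 0.79 (SE 0.48) missed the threshold (adjusted p = 0.377). It passed when the lean and 16-week groups were fitted alone (limma adjusted p = 0.0488; 15.4% of 267 called) and in edgeR on the recovered reads (2.28, adjusted p = 0.0337; 13.8% of 260 called), but not in edgeR without TMM scaling (2.11, adjusted p = 0.0697; 15% called) or DESeq2 (1.86, adjusted p = 0.153; 14.6% called). Of the hepatocyte markers, miR-192-5p had 19 reads in lean and 122 at 16 weeks, while miR-122-5p had 1 and 2 reads and miR-194-5p 1 and 0. The part of such a shift in the values of miR-195a-5p was not tested.

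**Figure D3:**
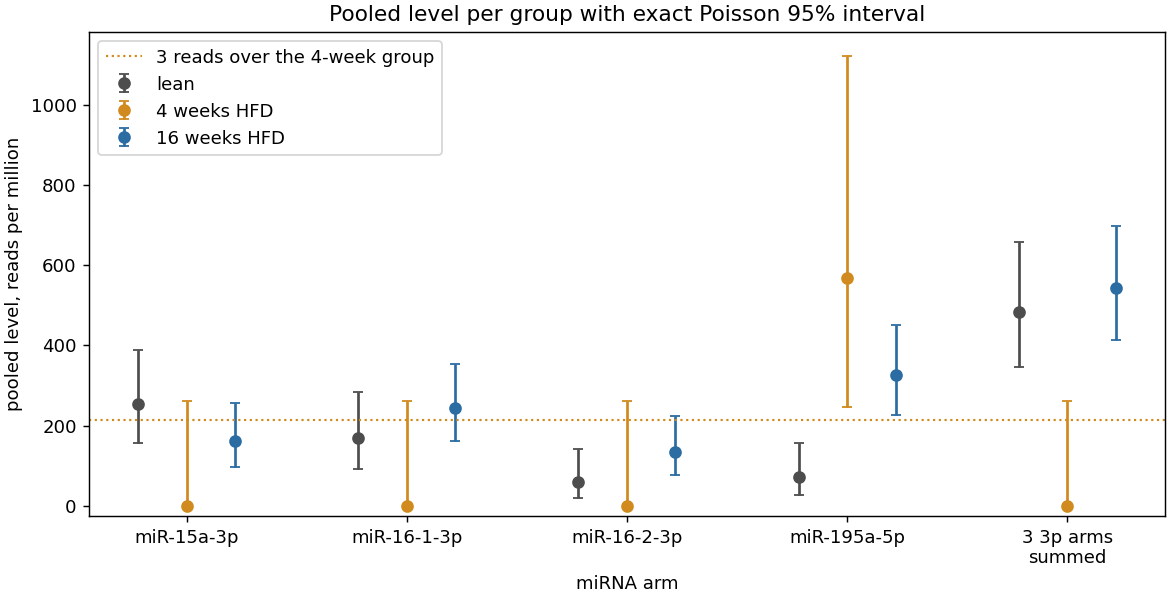
Pooled level in CPM (vertical axis) of each member with reads and of the 3 summed 3p arms in lean, 4 weeks and 16 weeks of HFD, with exact Poisson 95% intervals for counting error and the level of 3 reads over the 4-week group as a dotted line (213 CPM). For single 3p arms the 4-week upper limit of 262 CPM overlaps the lean interval, for the sum it does not, and for miR-195a-5p the 16-week interval (228 to 450) lies above the lean one (26.6 to 158).

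The third comparison set 16 against 4 weeks of HFD. It shares its libraries with the other comparisons, so its values are not separate evidence. None of the 4 tested members passed, against 30 of 267 over the table (9 higher and 21 lower, 11.2% called; 27 higher and 11 lower with CPM recomputed without miR-101b-3p). All 4 libraries at 16 weeks lay above all libraries at 4 weeks for miR-15a-3p, miR-16-1-3p and miR-16-2-3p, where all 4 libraries at 4 weeks were at 0. Any miRNA at 0 throughout the 4-week group, as 66 of 267 tested (24.7%) were, and read in every 16-week library separates in this way. How many other miRNAs do was not counted. For the 3 arms in that order the differences were 0.65 (SE 0.27, limma adjusted p = 0.139), 0.77 (SE 0.27, adjusted p = 0.0799) and 0.56 (SE 0.19, adjusted p = 0.0613). Each of the 3 passed without the variance trend (12.7% of all called) and with CPM recomputed without miR-101b-3p (14.3%). None passed in edgeR without TMM scaling (adjusted p = 0.245, 0.177 and 0.296; 15% called). In DESeq2 (14.6% called) the adjusted p was 0.263 for miR-15a-3p and 0.209 for miR-16-1-3p, with none given for miR-16-2-3p. In edgeR with TMM (12.3% called) only miR-16-1-3p passed (adjusted p = 0.0278). With the 2 groups alone or the replicate block, limma called none of them. For miR-195a-5p the difference was -0.03 (SE 0.48, limma adjusted p = 0.989), and its sign turned with the scaling (0.59 with CPM recomputed without miR-101b-3p) and without 4-week replicate 4 (0.53). The counting intervals of miR-195a-5p at 4 weeks (246 to 1121 CPM, 8 reads) and at 16 weeks (228 to 450 CPM) overlap.

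**Figure D4:**
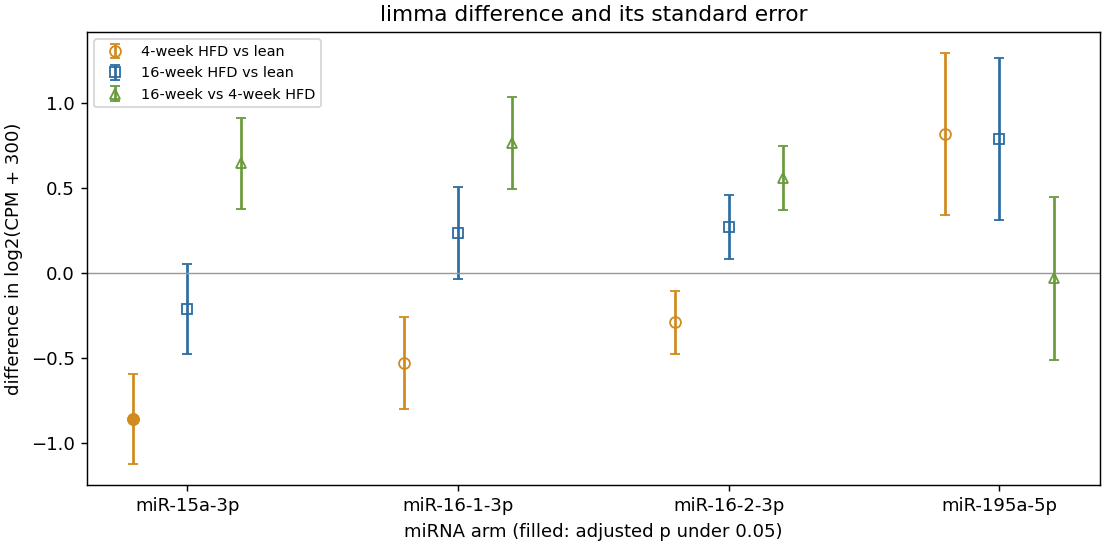
Difference in log2(CPM + 300) with its standard error (vertical axis) for the 4 tested members in the 3 comparisons, filled where the adjusted p was under 0.05. The only filled point is miR-15a-3p at 4 weeks against lean (-0.86), while the 16-week differences from lean lie between -0.21 and 0.79.

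Of the reads listed with the family seed, most belonged to a relative. What the table leaves out as not unique is not stated, so this holds for the listed reads and not for the exosomes as such. Besides the 5p members, 5 listed miRNAs have the same bases 2 to 8: miR-322-5p, miR-195b, miR-6342, miR-6353 and miR-6419. Of these miR-322-5p, from an X-linked cluster with miR-503 and miR-351, held 74 (lean), 29 (4 weeks) and 363 (16 weeks) reads, against 6, 8 and 36 reads of miR-195a-5p. Its sequence and that of miR-503-5p, whose seed differs in the last base, show how far they follow the family.
miR-322-5p: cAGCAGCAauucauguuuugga
miR-503-5p: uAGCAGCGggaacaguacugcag
The arm miR-322-5p had a mean level of 996 ± 1168 CPM (lean), 2020 ± 1132 CPM (4 weeks) and 3409 ± 1274 CPM (16 weeks, SD over 4 libraries), with limma differences from lean of 1.16 (SE 0.55, adjusted p = 0.139) and 1.88 (SE 0.55, adjusted p = 0.0507). Of the other 5 arms of the cluster, none with this seed, limma called 3 higher at 4 weeks than in lean: miR-322-3p (2.01, adjusted p = 0.00141), miR-351-5p (2.03, adjusted p = 0.00792) and miR-503-5p (1.47, adjusted p = 0.00896), but not miR-503-3p (1.36, adjusted p = 0.0615) or miR-351-3p (1.02, adjusted p = 0.176). At 16 weeks only miR-503-5p of these was called (1.47, limma adjusted p = 0.0255). The limma adjusted p at 16 weeks was 0.0998 for miR-322-3p (1.04), 0.154 for miR-351-5p (1.23), 0.325 for miR-503-3p (0.91) and 0.989 for miR-351-3p (0.01). All listed miRNAs with the seed of miR-16 together had pooled levels of 966 CPM for lean (exact Poisson 95% interval 766 to 1203), 2844 CPM for 4 weeks (2032 to 3873) and 3602 CPM for 16 weeks (3257 to 3973). The other relatives were nearly silent: miR-6342 had 1 read in each of 3 libraries at 4 weeks and 0 elsewhere, and miR-195b, miR-6353 and miR-6419 had 0 reads.

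The miRNAs whose values ran most like those of the member with most reads and of the member called at 4 weeks were looked up among the 267 tested, by Pearson correlation of log2(CPM + 300) over the 12 libraries, as a description. The libraries share depth and group, and sparse miRNAs share their zeros. For miR-195a-5p, the member with most reads, they were miR-224-5p (0.92), let-7j (0.87) and miR-6996-5p (0.86), with mean levels of 88.1, 134 and 45.7 CPM. For miR-15a-3p they were miR-1843a-5p (0.86; mean 26631 CPM), miR-6971-3p (0.82; 54.7 CPM) and miR-7032-3p (0.82; 73.8 CPM).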

How the data were processed

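The authors deposited 1 table of CPM by miRNA and library; the columns sum to about 1000000 over the listed miRNAs. The submitters' processing notes name mm10, cutadapt (version 1.13) and edgeR (version 3.16.5). Neither aligner nor miRNA annotation, nor how multiple matches were handled, is given in the sources used here. Of 2664 values above 0, 2617 (98.2%) were whole multiples of 1 step per column (relative tolerance 1e-06), which gave reads and depth. The exceptions lie in 7 miRNAs, none a member, which the count tests left out.

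Tests used limma (version 3.58.1, R version 4.3.3) on log2(CPM + 300) in 1 fit of all 12 libraries with a mean-variance trend, 2-sided, with Benjamini-Hochberg adjustment over the 267 miRNAs that reached 10 CPM in 4 or more libraries, called at 0.05. The pseudocount is about 1 read at 4 weeks. edgeR 4.0.16 (quasi-likelihood) and DESeq2 1.42.0 ran on the recovered reads of 260 miRNAs. edgeR's own filter kept no member, so that the limma filter was used, a choice made after the data were seen. Pooled reads carry exact Poisson intervals (95%). Named were all members, relatives by seed, the arms of miR-322, miR-503 and miR-351, cell markers and the 3 most alike miRNAs. The fits were tested on simulated data. Members, lists and settings were chosen with earlier results of these data known. Replicates of a group differed by more than sampling noise.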

Additional observations from a re-analysis of the deposited data

Results flagged for a closer look

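In 4-week replicate 4, miR-195a-5p stood at 1799 CPM (6 reads), while the other 3 libraries of that group lay at 0 to 256 CPM. The gap to the next library was 0.857 of the range of the group, above Dixon's 95% critical value for 4 samples. The library flagged is 1 of 11 member and group combinations examined, and chance flags about 1 group in 20. In that library 1 read was worth 299.9 CPM, and without it the limma difference of miR-195a-5p between 4 weeks and lean was 0.26 rather than 0.82.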

How the results depend on the processing

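At 4 weeks against lean, 1 member was called; with a pseudocount of 1 CPM it was 2 (miR-15a-3p and miR-16-1-3p), with DESeq2 0, and leaving out 1 library 0 to 1. In edgeR without TMM scaling the called member was miR-195a-5p. The total of 63 called miRNAs became 37 with the 2 groups alone and, after edgeR's own filter, 40 with TMM and 32 without; leaving out 1 library gave 42 to 64. At 16 weeks against lean, 0 members became 1 (miR-195a-5p) with the 2 groups alone and in edgeR with TMM. The total of 15 became 7 with a pseudocount of 1 CPM, 7 without a filter, 24 with CPM recomputed without miR-101b-3p, 23 with quantile normalization, 41 with the 2 groups alone, 38 in DESeq2 (6 higher and 32 lower), 8 without the 7 miRNAs, 25 in edgeR after its own filter, and 36 with TMM and 39 without it after the limma filter; leaving out 1 library gave 5 to 24, the highest without lean replicate 4. At 16 against 4 weeks, 0 members became 3 with a pseudocount of 1 CPM, a filter at 100 CPM, no variance trend, and CPM without miR-101b-3p or without the 5 most abundant miRNAs, 2 with a pseudocount of 100 CPM, 1 with quantile normalization and 1 in edgeR with TMM (miR-16-1-3p); leaving out 1 library gave 0 to 1. The total of 30 became 18 with the 2 groups alone and stayed at 20 to 38 on leaving out 1 library. The sign of miR-195a-5p at 16 against 4 weeks (-0.03) turned with a pseudocount of 1 (1.71) or 100 CPM (0.18), with CPM without miR-101b-3p (0.59) or without the 5 most abundant miRNAs (0.37), with quantile normalization (0.49), in edgeR with TMM (0.48), and without 4-week replicate 4 (0.53) or 16-week replicate 1 (0.10); leaving out 1 library gave -0.40 to 0.53. The cause was not tested. DESeq2 gave no adjusted p for miR-16-2-3p in the comparisons with 4 weeks, and edgeR's own filter left no member to test. The median shift of all tested miRNAs at 4 weeks against lean was -0.04, and -0.26 once miR-101b-3p was left out of the CPM.

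The groups share replicate numbers in the labels. The deviations of same-numbered libraries from their group means had correlations of -0.19 to 0.36. No differently numbered libraries were set beside them, so these values cannot show whether the numbers pair the libraries. With the replicate block, 68, 14 and 27 miRNAs were called in the 3 comparisons, and 1, 0 and 0 members (miR-15a-3p at 4 weeks, limma adjusted p = 0.0425). The share of 3p reads per hairpin was the same in every library with reads. This was fixed in advance, as 1 arm of each such pair had no read in any library. Depth limits the 4-week group most: a miRNA without a read there could still have a level of up to 262 CPM (2-sided 95% limit).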
